A study of Homo sapiens with 8 samples.

Results

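Cadherins are the transmembrane receptors that hold neighbouring cells together at adherens junctions, and 9 cadherin genes were followed here across an ovarian cancer line with and without functional BRCA1. The members were found by gene symbol in the deposited count table, which names 25369 genes. They comprise 4 type I cadherins (CDH1, CDH2, CDH3 and CDH4), 4 type II cadherins (CDH5, CDH6, CDH11 and CDH24) and CDH13, which is held in the membrane by a lipid anchor and lacks the cytoplasmic part that binds catenins, so that it is not a classical cadherin in the strict sense. All 9 members had enough counts to enter the test, together with 17714 genes in all. The group was chosen by the measured response of CDH5 to entinostat, around which its relatives were added by name, so every entinostat value of CDH5 is given as a description without a test.

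UWB1.289 is a human ovarian cancer line that carries mutated BRCA1 and is called BRCA1-null. The BRCA1+ line is UWB1.289 transduced with the BRCA1 gene. Each line received either DMSO, the vehicle, or 0.5 uM entinostat, an inhibitor of HDAC1 and HDAC3, and was harvested at 24 h, which gave 4 groups of 2 poly(A) RNA-seq libraries. Each BRCA1 state is represented by a single line, so any difference between the lines other than BRCA1 itself cannot be told apart from BRCA1. The labels do not say whether both libraries of a group came from separate cultures, so the p-values measure only the spread between these libraries, which may be technical.

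Classical cadherins bind the same cadherin on the next cell through their outermost repeat, in a calcium-dependent manner, and their cytoplasmic tails bind p120-catenin and beta-catenin, which connects through alpha-catenin to actin. Type I cadherins dock with a single conserved tryptophan and type II cadherins with a pair of them. CDH1 (E-cadherin) is the main cadherin of epithelia, CDH2 (N-cadherin) is found in neural and mesenchymal tissue, and carcinomas of the ovary are known to express both. CDH5 (VE-cadherin) is best known as the adhesion receptor of endothelial junctions.

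Total counts ranged from 31900158 to 53549893 per library. Levels are given as CPM, counts scaled to a common library total of 1e6. The 3 counts that a gene seen at 0 could still have had amounted to 0.0552 to 0.0946 CPM, which covers counting error only. Log2 CPM values of replicate libraries correlated across genes at r = 0.9915 to 0.9923 in the 4 groups, with genes not being independent replicates. BRCA1 itself lay at 92.3 to 98.9 CPM in BRCA1+ cells in DMSO and 118 to 133 CPM in entinostat. In BRCA1-null cells it lay at 21.0 to 22.4 CPM and 17.6 to 19.2 CPM. BRCA1 RNA was therefore lower but not absent in the line that is called null for its mutation. Epithelial keratins were the highest of the cell type markers examined, with KRT18 at a mean of 2980, KRT7 at 2710 and KRT8 at 2410 RPKM (CPM per kb of exon).

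Per exon length, the member with the highest level depended on the line. In BRCA1+ cells in DMSO, CDH6 was highest at 33.8 ± 0.685 RPKM (SD, n = 2), followed by CDH2 at 24.0 ± 0.384, CDH3 at 18.7 ± 0.655 and CDH1 at 11.3 ± 0.673 RPKM. CDH13, CDH24, CDH5, CDH11 and CDH4 followed in this order, from 6.91 down to 0.0630 RPKM, and no neighbours in the order overlapped between their libraries. In BRCA1-null cells in DMSO, CDH2 led at 19.5 ± 2.20 RPKM before CDH3 at 14.6 ± 0.808 and CDH13 at 11.8 ± 0.700 RPKM. CDH5, CDH1, CDH6 and CDH24 came next at group means of 8.90, 8.07, 7.88 and 7.87 RPKM, and each of these overlapped its neighbour, so that their order was not resolved. CDH11 and CDH4 were the lowest 2 members in every group.

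Under entinostat the order changed further. In BRCA1+ cells CDH6 (25.1 ± 0.732 RPKM) and CDH3 (24.2 ± 0.299 RPKM) led, and CDH5 and CDH13 overlapped at 5.66 and 5.47 RPKM. In BRCA1-null cells CDH3 led at 19.9 ± 1.15 RPKM, and CDH5, at 17.8 ± 3.68 RPKM, overlapped with CDH2 at 17.97 ± 0.533 RPKM. CDH24, CDH1 and CDH13 lay at 12.1, 11.3 and 10.5 RPKM in these cells, with overlaps between neighbours, and CDH6 was down to 4.58 ± 1.71 RPKM.

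**Figure D1:**
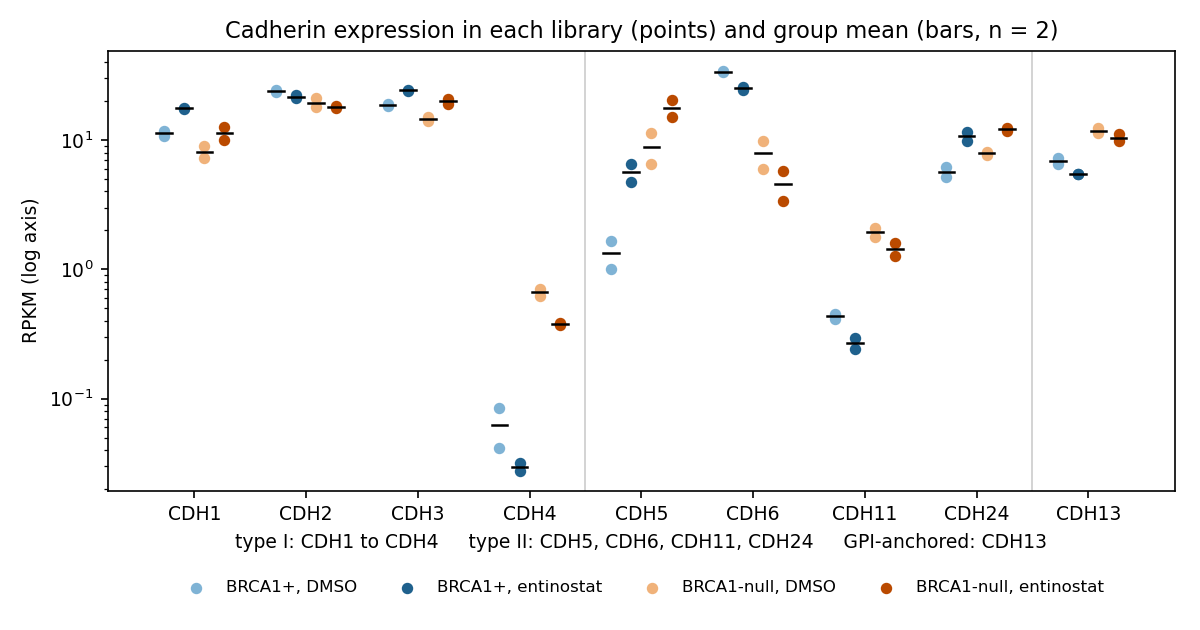
Level of each cadherin in RPKM on a log axis in the 8 libraries (points, coloured by line and treatment), with the mean of the 2 libraries of a group as a bar. CDH6 falls from 33.8 RPKM in BRCA1+ cells in DMSO to 4.58 RPKM in BRCA1-null cells in entinostat, CDH5 climbs from 1.33 to 17.8 RPKM over the same groups, and CDH2 stays between 17.97 and 24.0 RPKM.

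The first comparison asked how the cadherins differ between BRCA1-null and BRCA1+ cells without drug. In the quasi-likelihood test of edgeR, with p adjusted by Benjamini-Hochberg over all tested genes, 9 of 9 members differed at adjusted p under 0.05, beside 42.2% of all tested genes. CDH4, CDH5, CDH11, CDH13 and CDH24 were higher in BRCA1-null cells and CDH1, CDH2, CDH3 and CDH6 were lower, that is 5 higher and 4 lower, where 21.1% and 21% of all genes were higher and lower. The median log2 difference of the members was 0.47, against 0.01 over all tested genes. In entinostat 8 of 9 members differed between the lines, 4 in each direction, beside 39.4% of all tested genes (20.5% higher and 18.9% lower). The member that did not pass there was CDH24, and the median was 0.18 against 0.02 over all genes. In both treatments the same 4 genes, CDH4, CDH5, CDH6 and CDH11, differed by more than 1 on the log2 scale. The counts and medians between the lines include CDH5, which was chosen by its entinostat response in the same libraries.

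Among the type I members, CDH4 (R-cadherin, first described in retina) showed the largest difference between the lines, though its level was low. It had 0.575 and 0.283 CPM in the BRCA1+ libraries in DMSO (23 and 13 counts) and 4.26 and 4.84 CPM in the BRCA1-null libraries (194 and 263 counts). In entinostat the values were 0.189 and 0.216 CPM (6 and 10 counts) in BRCA1+ and 2.52 and 2.63 CPM (118 and 110 counts) in BRCA1-null cells. All 4 BRCA1-null libraries lay above all 4 BRCA1+ libraries. The log2 fold change was 3.44 ± 0.263 (SE) in DMSO, or 10.8-fold (adjusted p = 1.7e-05), and with entinostat 3.63 ± 0.367, or 12.4-fold (adjusted p = 7.75e-05).

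The 3 abundant type I cadherins were lower in BRCA1-null cells by modest amounts. CDH1 was measured at 56.7 and 52.1 CPM in BRCA1+ cells in DMSO, 84.0 and 85.4 CPM in BRCA1+ cells in entinostat, 42.9 and 34.8 CPM in BRCA1-null cells in DMSO and 60.7 and 48.1 CPM in BRCA1-null cells in entinostat. Within each treatment both BRCA1-null libraries lay below both BRCA1+ libraries, while BRCA1-null cells in entinostat overlapped with BRCA1+ cells in DMSO. CDH1 differed by -0.49 ± 0.125 in DMSO (adjusted p = 0.0121), and with entinostat by -0.64 ± 0.122 (adjusted p = 0.00282). The DMSO call was lost without BRCA1+ DMSO library 1 (-0.43, adjusted p = 0.0618) or BRCA1-null DMSO library 2 (-0.34, adjusted p = 0.0889).

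CDH3 (P-cadherin, typical of basal epithelial layers and placenta) lies next to CDH1 on chromosome 16. Its values were 81.7 and 77.8 CPM in BRCA1+ cells in DMSO, 104.5 and 102.7 CPM in BRCA1+ cells in entinostat, 59.9 and 64.8 CPM in BRCA1-null cells in DMSO and 81.7 and 88.6 CPM in BRCA1-null cells in entinostat. As for CDH1, both BRCA1-null libraries were below both BRCA1+ libraries within a treatment. The difference was -0.35 ± 0.0685 in DMSO (adjusted p = 0.00297), and with the drug -0.28 ± 0.0677 (adjusted p = 0.00898), and the latter call was lost without BRCA1-null entinostat library 1 (-0.23, adjusted p = 0.067).

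CDH2 varied least of the members. It had 103.4 and 105.8 CPM in BRCA1+ cells in DMSO, 92.5 and 96.9 CPM in BRCA1+ cells in entinostat, 78.2 and 91.8 CPM in BRCA1-null cells in DMSO and 76.8 and 80.1 CPM in BRCA1-null cells in entinostat. The lines did not overlap within a treatment, BRCA1-null cells having less by -0.30 ± 0.0784 on the log2 scale in DMSO (adjusted p = 0.0138) and, with entinostat, by -0.27 ± 0.0794 (adjusted p = 0.0227). The DMSO call was lost without BRCA1-null DMSO library 1 (-0.17, adjusted p = 0.122) or BRCA1+ DMSO library 2 (-0.28, adjusted p = 0.0661). The entinostat call was lost without BRCA1-null entinostat library 1 (adjusted p = 0.108), BRCA1-null entinostat library 2 (adjusted p = 0.0532) or BRCA1+ entinostat library 2 (adjusted p = 0.129).

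Of the type II cadherins, CDH6 (K-cadherin, known from fetal kidney and from kidney and ovarian carcinomas) was lower in BRCA1-null cells. BRCA1+ cells had 294.2 and 285.9 CPM in DMSO and 219.3 and 210.4 CPM in entinostat. BRCA1-null cells had 83.8 and 51.3 CPM in DMSO and 49.6 and 28.9 CPM in entinostat. The lines were far apart in both treatments, and the BRCA1-null replicates were themselves farther apart than those of any BRCA1+ group. The log2 fold change was -2.11 ± 0.243 in DMSO (adjusted p = 1.54e-04), a 4.31-fold lower level, and -2.45 ± 0.252 in entinostat (adjusted p = 8.53e-05), a 5.45-fold lower level.

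CDH5 was higher in BRCA1-null cells. Its values were 4.15 and 6.82 CPM in BRCA1+ cells in DMSO, 19.6 and 27.1 CPM in BRCA1+ cells in entinostat, 26.8 and 46.7 CPM in BRCA1-null cells in DMSO and 62.6 and 84.1 CPM in BRCA1-null cells in entinostat. The lines did not overlap within a treatment, whereas BRCA1+ cells in entinostat reached the lower of the BRCA1-null libraries in DMSO. CDH5 was 6.66-fold higher in BRCA1-null cells in DMSO (log2 fold change 2.74 ± 0.332, adjusted p = 2.08e-04) and 3.10-fold higher in entinostat (1.63 ± 0.271, adjusted p = 0.0013). These comparisons use the libraries in which the entinostat response of CDH5 was seen, so they are not independent of its choice in full. In all 4 groups library 2 had more CDH5 than library 1 and less CDH6. With the replicate number added to the fit as a block, the SE of the CDH5 line difference was 0.116 in DMSO and 0.0926 in entinostat. For CDH6 it was 0.1655 and 0.1734, against 0.243 and 0.252 without the block. What the replicate number marks is not stated, and whether a shared factor of the second libraries plays a part was not tested.

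CDH11 (OB-cadherin, typical of osteoblasts and mesenchymal cells) was the third type II cadherin with a large difference, at low levels. It had 1.501 and 1.656 CPM in BRCA1+ cells in DMSO, 1.07 and 0.884 CPM in BRCA1+ cells in entinostat, 6.48 and 7.58 CPM in BRCA1-null cells in DMSO and 5.80 and 4.64 CPM in BRCA1-null cells in entinostat. All BRCA1-null libraries lay above all BRCA1+ libraries. The level was 4.45-fold higher in DMSO (2.16 ± 0.193, adjusted p = 3.57e-05) and 5.44-fold higher in entinostat (2.45 ± 0.236, adjusted p = 6.05e-05). No library decided a call for CDH4, CDH5, CDH6 or CDH11 between the lines when left out.

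CDH24, a type II cadherin that binds catenins, had 22.0 and 18.4 CPM in BRCA1+ cells in DMSO, 41.0 and 34.9 CPM in BRCA1+ cells in entinostat, 28.7 and 27.2 CPM in BRCA1-null cells in DMSO and 43.7 and 42.0 CPM in BRCA1-null cells in entinostat. The treatments were farther apart than the lines. BRCA1-null cells had more CDH24 in DMSO by 0.47 ± 0.108 (adjusted p = 0.00699), a call lost without BRCA1+ DMSO library 2 (0.35, adjusted p = 0.0594), and the difference in entinostat, 0.18 ± 0.102, did not pass (adjusted p = 0.192).

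CDH13 (T-cadherin), the lipid-anchored member and a known receptor for adiponectin, was higher in BRCA1-null cells. It was measured at 28.4 and 31.4 CPM in BRCA1+ cells in DMSO, 23.5 and 23.8 CPM in BRCA1+ cells in entinostat, 49.0 and 53.3 CPM in BRCA1-null cells in DMSO and 42.3 and 48.2 CPM in BRCA1-null cells in entinostat. All BRCA1-null libraries exceeded all BRCA1+ libraries, by 0.77 ± 0.0888 on the log2 scale in DMSO (adjusted p = 1.52e-04), and with the drug 0.93 ± 0.0927 (adjusted p = 7.06e-05). CDH13 is the only member whose gene overlaps other annotated genes, namely MIR8058, LOC101928446, MIR3182 and, on the opposite strand, LOC101928417. These had 6 to 106 counts per library. Since the handling of strand was not stated, reads of CDH13 and LOC101928417 cannot be told apart where they overlap. MIR8058, LOC101928446 and MIR3182 share the strand of CDH13, so strand would not separate their reads from those of CDH13.

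**Figure D2:**
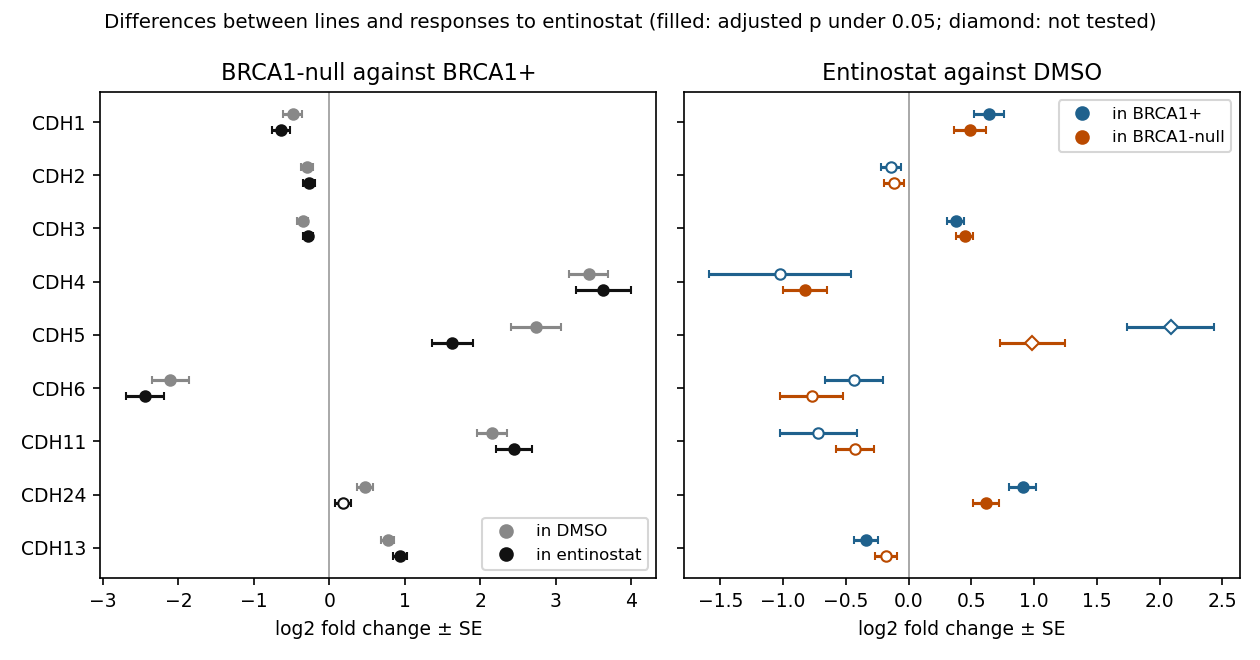
Log2 fold changes ± SE of the cadherins between the lines in each treatment (left) and between entinostat and DMSO in each line (right), with filled symbols for adjusted p under 0.05 and diamonds for the untested CDH5 response. The line differences of CDH4 (3.44 and 3.63), CDH5, CDH6 and CDH11 stand far from 0 in both treatments, and CDH1, CDH3 and CDH24 lie to the right of 0 under entinostat in both lines.

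The next comparison asked how each line responded to HDAC inhibition. CDH5, selected for this response, went from 4.15 and 6.82 CPM to 19.6 and 27.1 CPM in BRCA1+ cells, a log2 fold change of 2.09 ± 0.348, and from 26.8 and 46.7 CPM to 62.6 and 84.1 CPM in BRCA1-null cells, a log2 fold change of 0.99 ± 0.256. Entinostat and DMSO libraries did not overlap in either line. Ordered by log2 fold change it stood at rank 200 of 17714 tested genes in BRCA1+ cells, and at rank 830 in the BRCA1-null line. The BRCA1-null value depended on the library, being 0.63 without BRCA1-null DMSO library 1 and 1.45 without BRCA1-null DMSO library 2, and the BRCA1+ value was 2.51 without BRCA1+ DMSO library 2.

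Of the other 8 members, 4 passed the test in BRCA1+ cells, 3 of them higher under entinostat and 1 lower, beside 14.1% of all tested genes (8.13% higher and 6% lower). In BRCA1-null cells 4 of 8 passed, again 3 higher and 1 lower, beside 10.8% of all tested genes (7.57% higher and 3.19% lower). CDH1, CDH3 and CDH24 rose in both lines. The medians of the 8 members were -0.24 and -0.15, against 0.00 (0.000413) and 0.02 over all tested genes. The entinostat and line comparisons share libraries, so they are not independent of each other.

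CDH24 had the largest rise of the tested members. It increased 1.88-fold in BRCA1+ cells (0.91 ± 0.108, adjusted p = 0.00156) and 1.53-fold in BRCA1-null cells (0.62 ± 0.102, adjusted p = 0.00831), with no overlap between treatments. CDH1 increased 1.56-fold in BRCA1+ cells (0.64 ± 0.122, adjusted p = 0.0102) and 1.40-fold in BRCA1-null cells (0.49 ± 0.125, adjusted p = 0.0389). CDH3 increased 1.30-fold in BRCA1+ cells (0.38 ± 0.068, adjusted p = 0.00816) and 1.36-fold in BRCA1-null cells (0.45 ± 0.0683, adjusted p = 0.006). Each of these 6 responses was smaller than 1 on the log2 scale.

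Several of these calls rested on single libraries. In BRCA1+ cells, both CDH1 and CDH3 lost their calls without BRCA1+ entinostat library 1, BRCA1+ entinostat library 2 or BRCA1+ DMSO library 2, at adjusted p = 0.0517, 0.0714 and 0.0728 for CDH1 and 0.056, 0.0597 and 0.0601 for CDH3, which left 1 of 8 members called. In BRCA1-null cells, CDH1 lost its call without any one of 6 libraries, every library except BRCA1-null DMSO library 1 and BRCA1-null entinostat library 2 (adjusted p = 0.0508 to 0.21), and also when only the compared groups were fitted (adjusted p = 0.119). CDH24 lost its call in BRCA1-null cells without BRCA1-null entinostat library 1 (0.59, adjusted p = 0.0536) or BRCA1-null DMSO library 2 (0.58, adjusted p = 0.0597). In either omission 2 of 8 members were called, CDH3, which kept its call, and CDH6, which gained one, while CDH1 and CDH4 lost theirs too.

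CDH13 and CDH4 were the members called lower, each in 1 line, though both had lower means under entinostat in both lines. CDH13 fell by 0.34 ± 0.0952 on the log2 scale in BRCA1+ cells (adjusted p = 0.0453), a call lost with upper-quartile scaling (adjusted p = 0.0662), without a filter on low counts (0.0547), with a stricter filter (0.0532) and without any one of the 4 BRCA1+ or 2 BRCA1-null DMSO libraries (0.0515 to 0.222). In BRCA1-null cells its change was -0.18 ± 0.086 (adjusted p = 0.217). CDH4 fell by 0.83 ± 0.175 in BRCA1-null cells (adjusted p = 0.0203), a call lost without BRCA1-null DMSO library 2 (adjusted p = 0.108) or either BRCA1-null entinostat library (0.112 and 0.0688), under the Wald test of DESeq2 (0.114), with the legacy estimate (0.0596) and with only the compared groups (0.054). In BRCA1+ cells, with 6 to 23 counts of CDH4 per library, the change was -1.02 ± 0.565 (adjusted p = 0.273).

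CDH6, CDH11 and CDH2 had lower means under entinostat in both lines without passing the test. The CDH6 change was -0.43 ± 0.230 in BRCA1+ cells (adjusted p = 0.255), and the BRCA1-null change was -0.77 ± 0.250 (adjusted p = 0.0817). A call for CDH6 was gained in BRCA1-null cells with the likelihood ratio test (-0.78, adjusted p = 0.0211), with the replicate number as a block (-0.78, adjusted p = 0.014) and without BRCA1-null entinostat library 1 (-1.22, adjusted p = 0.0423) or BRCA1-null DMSO library 2 (-1.09, adjusted p = 0.044), and in BRCA1+ cells when only the compared groups were fitted (adjusted p = 0.00369). CDH11 changed by -0.72 ± 0.305 (adjusted p = 0.154) and -0.43 ± 0.150 (adjusted p = 0.104). CDH2 changed by -0.14 ± 0.0787 (adjusted p = 0.274) and -0.12 ± 0.079 (adjusted p = 0.385) in BRCA1+ and BRCA1-null cells, and its BRCA1-null libraries in DMSO and entinostat overlapped.

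Whether the response differs between the lines was tested as the interaction, the log2 fold change in BRCA1-null minus that in BRCA1+ cells. None of the 8 members passed edgeR's quasi-likelihood test (0 of 8, adjusted p of at least 0.967), 0 had an unadjusted p under 0.05, and the DESeq2 Wald test and the likelihood ratio test also called 0 members, beside 0% of all tested genes. Over all tested genes 827 had an unadjusted p under 0.05, where DESeq2 called 11 and the likelihood ratio test 18. CDH24 had the smallest unadjusted p of the members, 0.0805, with an interaction of -0.29 ± 0.148. For CDH5 the difference of the responses was -1.10 ± 0.438, as a description, and -0.64 without BRCA1-null DMSO library 2.

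The make-up of the cadherin transcripts shifted between the lines while their sum moved less. Summed over the 9 members, RPKM reached 103.1 and 101.2 in BRCA1+ cells in DMSO, 110.7 in both BRCA1+ libraries in entinostat, 78.9 and 83.5 in BRCA1-null cells in DMSO and 94.3 and 97.4 in BRCA1-null cells in entinostat. In DMSO, CDH6 supplied 33.3% and 33.0% of this sum in BRCA1+ and 12.4% and 7.17% in BRCA1-null libraries, and with entinostat 23.1% and 22.2% against 6.14% and 3.46%. CDH5 supplied 0.975% and 1.63% in BRCA1+ and 8.23% and 13.6% in BRCA1-null libraries in DMSO, and with entinostat 4.30% and 5.93% against 16.1% and 20.9%. Neither share overlapped between the lines within a treatment. The share of all type II members together ranged from 32.4% to 40.6% over the 8 libraries, and that of the type I members from 50.8% to 57.8%. The share of CDH13 was 4.90% to 7.17% in BRCA1+ and 10.4% to 14.7% in BRCA1-null libraries.

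The balance of CDH1 and CDH2, often followed in carcinomas as a sign of epithelial against mesenchymal state, moved with treatment. Their RPKM ratio was 0.497 and 0.447 in BRCA1+ cells in DMSO and 0.824 and 0.799 in entinostat. In BRCA1-null cells it was 0.498 and 0.343 in DMSO and 0.717 and 0.544 in entinostat. CDH2 exceeded CDH1 in every library, and treated libraries had the higher ratio in each line without overlap.

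**Figure D3:**
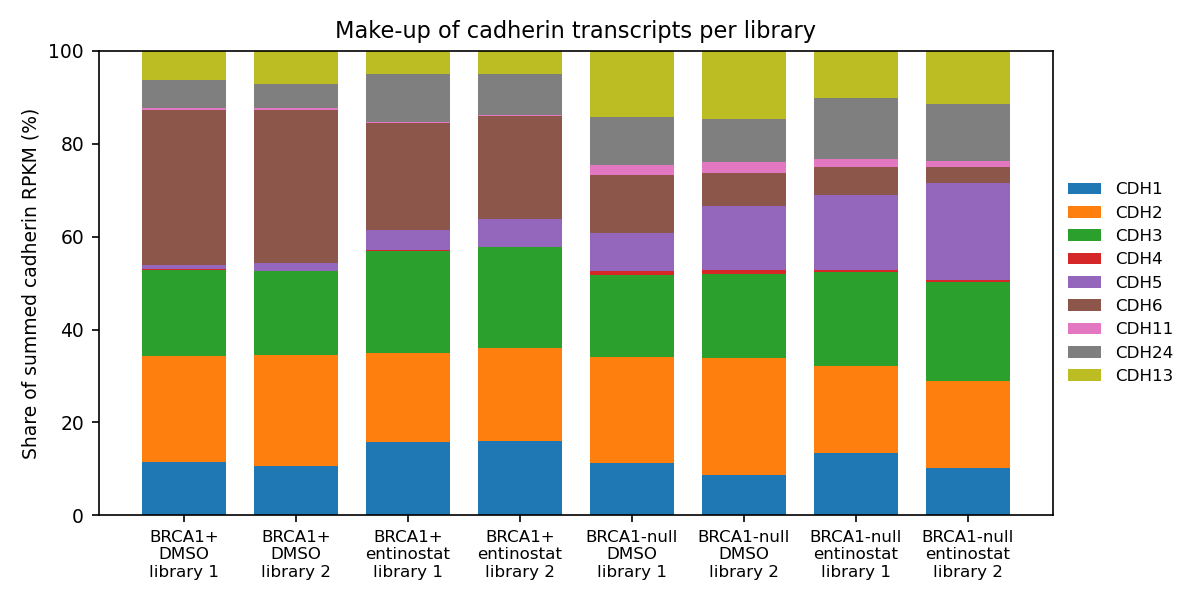
Share of each cadherin in the summed RPKM of the 9 members, in percent, 1 stacked bar per library. The CDH6 segment shrinks from 33.3% in BRCA1+ DMSO library 1 to 3.46% in BRCA1-null entinostat library 2, and the CDH5 segment grows from 0.975% to 20.9%.

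Because CDH5 is known as an endothelial gene, 18 other endothelial markers were examined. Their summed level was 52.4 to 54.6 CPM in BRCA1+ cells in DMSO and 68.6 to 73.0 CPM in entinostat. In BRCA1-null cells it was 84.6 to 86.0 CPM in DMSO and 116 to 122 CPM in entinostat, the same order of groups as for CDH5. EGFL7 alone had group means of 21.6, 36.3, 48.6 and 68.1 CPM in these groups. In DMSO, PLVAP had 0.442 CPM in BRCA1+ and 8.49 CPM in BRCA1-null cells, while ESAM had 5.47 and 1.02 CPM. The order of the sum rests on EGFL7 and PLVAP and does not describe the other markers as a set. Of the 18 markers, 16 were tested. In BRCA1-null cells 7 were higher and 3 lower in DMSO, and 10 were higher and 3 lower in entinostat. Under entinostat 2 rose in BRCA1+ and 4 in BRCA1-null cells. This stands beside 42.2%, 39.4%, 14.1% and 10.8% of all tested genes called in these comparisons. In cultures measured in bulk, more cells of a type and more RNA per cell cannot be told apart.

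The endothelial markers did not all move in one direction. EGFL7, a secreted vascular factor, was the most abundant at 17 RPKM on average and was higher in BRCA1-null cells in DMSO (1.17, adjusted p = 1.36e-05). PLVAP, a component of endothelial fenestrae, followed at 2.72 RPKM and ESAM, an endothelial adhesion molecule, at 2.25 RPKM, the former higher (4.30, adjusted p = 7.58e-06) and the latter lower (-2.40, adjusted p = 1.58e-04) in BRCA1-null cells in DMSO. Of the other 7 that passed in DMSO, ROBO4 (3.99), NOS3 (3.69), TIE1 (2.59), KDR (2.06) and VWF (1.202) were higher, as CDH5 was. Their group means in DMSO reached at most 3.87 CPM. FLT1 (-1.16) and ERG (-0.94) were lower. TIE1 rose under entinostat in both lines (2.34, adjusted p = 0.0248, and 1.15, adjusted p = 0.0316), and so did EGFL7 (0.75, adjusted p = 0.00147, and 0.49, adjusted p = 0.00801). PECAM1, at 127 to 395 counts, differed by -0.95 in DMSO without passing (adjusted p = 0.0832). CLEC14A had 0 counts in every library, and EMCN, TEK and CLDN5 had 0 to 6, 1 to 12 and 3 to 12 counts, where CDH5 had 166 to 3513. The genes of this list other than EGFL7, PLVAP and ESAM were named after their values were seen, and the part of endothelial cells in the CDH5 values was not tested.

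**Figure D4:**
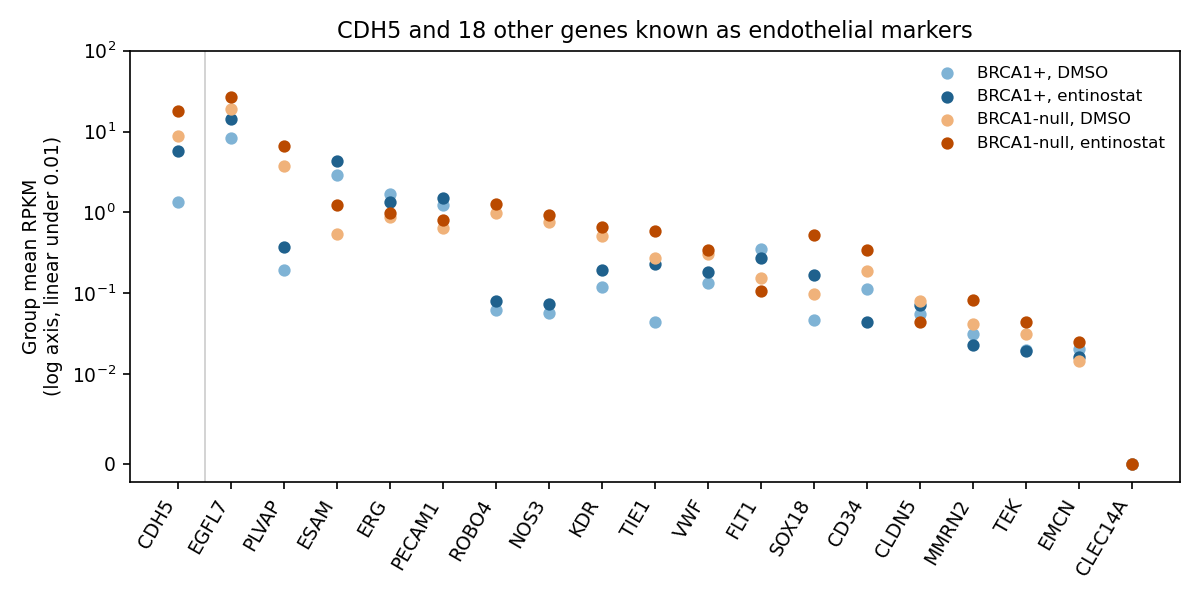
Group mean RPKM of CDH5 and of 18 other genes known as endothelial markers, on a log axis that is linear under 0.01, with 1 point per group (mean of 2 libraries). EGFL7 and PLVAP follow CDH5 in being highest in BRCA1-null cells in entinostat, ESAM, ERG and PECAM1 have higher means in BRCA1+ cells, and CLEC14A sits at 0.

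Markers of fibroblasts and immune cells were mostly low. Of 9 fibroblast and immune genes, LUM and DCN had 0 counts in every library and PDGFRB and CD3E at most 4, while CD68 (9.52 RPKM), COL1A2 (3.89 RPKM) and COL1A1 (2.02 RPKM) were the highest. The 9 genes summed to 27.7 to 32.3 CPM in BRCA1+ cells in DMSO and 45.7 to 56.3 CPM in entinostat. In BRCA1-null cells they summed to 52.8 to 70.2 CPM in DMSO and 70.0 to 95.9 CPM in entinostat. Of the 5 tested, 3 were higher and 1 lower in BRCA1-null cells in DMSO, beside 42.2% of all tested genes called there. Of 10 epithelial and ovarian carcinoma genes, 2 were higher and 2 lower in BRCA1-null cells in each treatment. This stands beside 42.2% of all tested genes called in DMSO and 39.4% in entinostat. EPCAM lay at 314 RPKM and PAX8 at 89.8 RPKM, while WT1 had 1 to 20 counts. The 10 genes summed to 15000 to 16000 CPM in BRCA1+ cells in DMSO and 18200 to 18500 CPM in entinostat. In BRCA1-null cells they summed to 14200 to 15700 CPM in DMSO and 15900 to 17600 CPM in entinostat. The part of any of these in the cadherin differences was not tested.

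The genes that anchor cadherins inside the cell were taken as a list of 22 catenins and junction genes, of which 19 were tested. In BRCA1-null cells in DMSO 5 were higher and 8 lower, with a median of -0.11, beside the 42.2% of all tested genes called there. In entinostat 5 were higher and 9 lower, with a median of -0.18, beside 39.4% of all genes. The core catenins, named for their role after the values were seen, all passed the test in DMSO. Alpha-catenin (CTNNA1) was lower by -0.55 ± 0.0546 on the log2 scale (adjusted p = 6.78e-05) and beta-catenin (CTNNB1) by -0.27 ± 0.0478 (adjusted p = 0.00164), while p120-catenin (CTNND1) was higher by 0.15 ± 0.0471 (adjusted p = 0.0291).

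The largest differences in this list lay outside the core catenins. CTNND2, the neural delta-catenin, had 0.675 and 0.850 CPM in BRCA1+ and 3.82 and 3.83 CPM in BRCA1-null cells in DMSO (2.31 ± 0.202, adjusted p = 3.24e-05). PTPRM, a receptor phosphatase that associates with cadherins, was higher by 1.12 ± 0.175 (adjusted p = 8.91e-04), and PLEKHA7, which binds p120-catenin at the zonula adherens, was lower by -1.63 ± 0.120 (adjusted p = 1.39e-05). In entinostat these 3 genes differed by 1.93, 1.36 and -1.31. Without BRCA1+ DMSO library 2 the list's DMSO count fell from 13 to 8, and in entinostat it fell from 14 to 9 without BRCA1+ entinostat library 1 or BRCA1-null entinostat library 2.

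Under entinostat 4 junction genes rose and 1 fell in BRCA1+ cells, and 3 rose and 2 fell in BRCA1-null cells, that is 5 of 19 in each line, beside 14.1% and 10.8% of all tested genes. The actin linker LIMA1 rose by 0.50 ± 0.0600 (adjusted p = 0.00162) and 0.55 ± 0.0589 (adjusted p = 0.00169), and plakoglobin (JUP) by 0.46 ± 0.0565 (adjusted p = 0.00175) and 0.44 ± 0.0565 (adjusted p = 0.00306), in BRCA1+ and BRCA1-null cells. AJUBA, a partner of alpha-catenin, fell in both lines (-0.30 ± 0.0540, adjusted p = 0.00777, and -0.45 ± 0.0539, adjusted p = 0.00251). The count of 5 in BRCA1+ cells was 2 without BRCA1+ entinostat library 1 and 3 without BRCA1+ entinostat library 2 or BRCA1+ DMSO library 2. In BRCA1-null cells it was 3 without any one of 6 libraries, all but BRCA1+ DMSO library 2 and BRCA1-null entinostat library 1.

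Cadherins are made as precursors that proprotein convertases trim, and ADAM proteases and gamma-secretase later cut them at the surface. A list of 13 processing genes was compared, which also held CBLL1 from outside these classes. In BRCA1-null cells 3 were higher and 3 lower in DMSO, and 4 and 2 in entinostat. That is 6 of 13 in each, beside 42.2% and 39.4% of all tested genes. The convertases PCSK6 (1.09 ± 0.118, adjusted p = 1.1e-04) and FURIN (0.64 ± 0.0824, adjusted p = 3.01e-04) and the protease ADAM15 (0.40 ± 0.0672, adjusted p = 0.00138) were higher in DMSO. PSEN2, a presenilin of gamma-secretase, was higher in entinostat (0.60 ± 0.122, adjusted p = 0.00402). Under entinostat 1 rose and 2 fell in BRCA1+ cells, and 1 rose and 0 fell in BRCA1-null cells. This stands beside 14.1% and 10.8% of all tested genes. Entinostat raised APH1B, a gamma-secretase subunit, by 1.38 ± 0.244 in BRCA1+ and 1.53 ± 0.255 in the BRCA1-null line (adjusted p = 0.00777 and 0.00854). It lowered PCSK6 (-0.63 ± 0.148, adjusted p = 0.0249) and PSEN2 (-0.55 ± 0.123, adjusted p = 0.0205) in BRCA1+ cells. APH1B was low, with group means of 1.85 to 6.65 CPM. APH1A, named after its values were seen, had group means of 196 to 207 CPM and did not pass for entinostat (adjusted p = 0.666 and 0.909).

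Transcription factors known to repress or activate CDH1 were compared as a list of 13, and in BRCA1-null cells 5 were higher and 2 lower in each treatment, that is 7 of 13, beside the same 42.2% and 39.4% of all genes. TWIST2, a repressor, had 0.0750 and 0.131 CPM in BRCA1+ cells in DMSO against 8.22 and 10.2 CPM in the BRCA1-null line (adjusted p = 2.96e-06), and with entinostat 0.0315 and 0.0431 CPM against 6.40 and 9.93 CPM (adjusted p = 5.2e-06). ZEB1, another repressor, went from 0.300 and 0.436 CPM in BRCA1+ to 2.40 and 1.71 CPM in BRCA1-null cells in DMSO, a difference of 2.44 ± 0.400 (adjusted p = 0.00121), with 1.65 ± 0.316 under entinostat (adjusted p = 0.00293). KLF4, known to activate CDH1, was also higher in DMSO (0.93 ± 0.0913, adjusted p = 6.19e-05), and TWIST1, a repressor, in entinostat (1.08 ± 0.249, adjusted p = 0.00753). The genes that were lower were the activators GRHL1 (-0.86 ± 0.0880, adjusted p = 7.54e-05, in DMSO) and GRHL2 (-0.43 ± 0.0713, adjusted p = 0.0013, in DMSO), the latter named after its values were seen. Under entinostat 2 of the 13 rose and 0 fell in each line, beside 14.1% and 10.8% of all tested genes called. The repressor SNAI1 rose by 1.14 ± 0.282 in BRCA1+ and 1.18 ± 0.238 in the BRCA1-null line (adjusted p = 0.0288 and 0.0169). The activator GRHL1 rose by 0.35 ± 0.0834 and 0.34 ± 0.0907 (adjusted p = 0.0246 and 0.0463). Whether these changes bear on the rise of CDH1 was not tested.

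Other cadherin genes contributed little. Of 14 further members of the family, 7 had enough counts to be tested, CDH9, CDH19 and CDH22 had 0 counts in every library, and the 14 summed to at most 4.39 CPM in a library. In BRCA1-null cells in DMSO 2 were higher, CDH23, a cadherin of hair-cell tip links, at 1.45 and 2.06 CPM against 0.700 and 0.762 CPM (1.28 ± 0.365, adjusted p = 0.0201), and CDH26, at 0.747 and 0.497 CPM against 0.05 and 0.152 CPM (adjusted p = 0.0102). In entinostat CDH26 was higher (adjusted p = 0.0347) and CDH15, the muscle cadherin, lower (adjusted p = 0.0443), both under 0.5 CPM in each library compared. None of the 7 passed the test for entinostat in either line. Of all tested genes, 42.2% and 39.4% were called between the lines in DMSO and entinostat. For entinostat, 14.1% and 10.8% were called in BRCA1+ and BRCA1-null cells.

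The patterns of the members over the 8 libraries are given as descriptions, since the libraries share lines and treatments. By Pearson's r of log2 CPM, CDH4, CDH11 and CDH13 were alike (0.968 to 0.980), CDH1 and CDH3 followed each other (0.887), and CDH5 ran against CDH6 (-0.891). Among 13109 other genes, those most like CDH5 were CNTN1, a neural adhesion molecule of the immunoglobulin family (0.996), the lysosomal membrane protein LAMP2 (0.993), MCF2L2 (0.991), the muscle phosphofructokinase PFKM (0.990) and PIK3IP1 (0.990). CNTN1 had group means of 1.74, 5.89, 10.1 and 19.6 CPM in BRCA1+ cells in DMSO and entinostat and BRCA1-null cells in DMSO and entinostat. The protocadherin PCDH7 was the most like CDH6 (0.995), at 20.8, 14.3, 2.43 and 1.60 CPM in the same groups. The genes most like CDH1, CDH13 and CDH24 were RGS9BP (0.993), AEN (0.998) and GDF11 (0.996).

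On hg19, 5 of the 9 members lie on the long arm of chromosome 16. CDH11 (chr16:64980683-65155919, minus strand) and CDH5 (chr16:66400525-66438689, plus strand) lay 1245 kb apart with no tested gene between them. Both were higher in BRCA1-null cells. On the other side of CDH5, LINC00920, 3.74 kb away, differed by 0.70 ± 0.491 in DMSO without passing (adjusted p = 0.281). On the other side of CDH11, LOC101927580, 4893 kb away, differed by -0.15 ± 0.492 in DMSO (adjusted p = 0.839). CDH3 (chr16:68678151-68732957) and CDH1 (chr16:68771195-68869444), both on the plus strand and 38.2 kb apart, were both lower. The genes flanking this pair were not lower in DMSO, with ZFP90 at 0.47 ± 0.111 (adjusted p = 0.00851) and TANGO6 at 0.17 ± 0.113 (adjusted p = 0.248). Under entinostat in BRCA1+ cells, where CDH1 and CDH3 rose, both flanking genes rose as well, ZFP90 by 0.67 ± 0.113 (adjusted p = 0.00637) and TANGO6 by 0.42 ± 0.114 (adjusted p = 0.0401), and in BRCA1-null cells they changed by 0.29 (adjusted p = 0.0991) and 0.31 (adjusted p = 0.094). CDH13 (chr16:82660399-83830215, plus strand) lies toward the end of the arm, and its neighbours MPHOSPH6 and HSBP1 differed by -0.03 ± 0.0938 and -0.26 ± 0.0522.

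The other members lie apart. CDH6 (chr5:31193762-31329253, plus strand) is followed by DROSHA at 71.3 kb, which differed between the lines by -0.09 ± 0.0580 in DMSO (adjusted p = 0.247), where CDH6 differed by -2.11. CDH4 (chr20:59827482-60515673, plus strand) is followed by TAF4 at 34.2 kb (0.19 ± 0.108, adjusted p = 0.186), where CDH4 differed by 3.44. The nearest tested gene on its other side was CDH26, 1239 kb away. CDH2 (chr18:25530930-25757445, minus strand) lies between the tested genes CHST9, 765.6 kb away (1.61 ± 0.687, adjusted p = 0.0878), and DSC3, 2812 kb away (-0.22 ± 0.224, adjusted p = 0.469). CDH24 (chr14:23516270-23526747, minus strand) lies between PSMB5, 11.8 kb away and higher in BRCA1-null cells as CDH24 was (0.23 ± 0.0634, adjusted p = 0.0168), and ACIN1, 1.03 kb away (0.08 ± 0.0534, adjusted p = 0.232).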

How the data were processed

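Poly(A) mRNA of UWB1.289 cells was sequenced in 8 libraries (groups and replicate numbers from the sample labels). The authors deposited raw read counts per gene symbol, made by alignment to hg19 with TopHat 2 and counting with NGSUtils (version, strand and multi-mapping not given in the sources used here). All 8 libraries entered 1 quasi-likelihood fit in edgeR 4.0.16 (R 4.3.3, legacy set to FALSE) with a mean per group, filterByExpr, TMM scaling and 4 residual degrees of freedom. Benjamini-Hochberg adjustment covered 17714 genes, a call required adjusted p under 0.05, tests were two-sided, and the SE is the log2 fold change divided by the root of F. The 1 entry without a name had 0 counts. CPM used scaled totals, and RPKM divided CPM by the deposited exonic length. The test was checked on simulated counts.

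The members and lists were chosen with earlier results of these data known. Beside the members, the named genes were up to 3 per list and contrast with the largest absolute change among called genes, the 3 most abundant of each marker list, the genes most like a member over 8 libraries (prior count 2, mean log2 CPM of at least 1) and nearest tested neighbours. The settings tried beside these were scaling by DESeq2 size factors or by upper quartiles, no filter, a filter of 1 CPM in 2 libraries, the DESeq2 1.42.0 Wald test, edgeR's likelihood ratio test and legacy estimate, a replicate block, only the groups compared, added thresholds (unadjusted p under 0.01, or absolute log2 fold change of at least 1), and omission of each library.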

Additional observations from a re-analysis of the deposited data

How the results depend on the processing

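Between the lines, the directions of all 9 cadherins held under every alternative run. When calls also had to exceed 1 on the log2 scale, there remained 4 cadherins in DMSO, 4 in entinostat and 0 in either entinostat comparison, and 3, 3, 0 and 0 junction genes. Fitting only the groups compared left 2 cadherins and 3 junction genes for entinostat in BRCA1-null cells. In BRCA1+ cells upper-quartile factors called 9 junction genes and the likelihood ratio test 8. Leaving out 1 library gave 7 to 9 and 6 to 8 cadherins between the lines in DMSO and entinostat, for entinostat 1 to 4 in the BRCA1+ and 2 to 4 in the BRCA1-null line, and for junction genes 8 to 13, 9 to 12, 2 to 6 and 3 to 4. With 2 libraries a group, and as few as 6 counts of CDH4, small responses are at the limit of what could be called.

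The signs that turned were those of responses and interactions that had not passed the test. CDH2 under entinostat in BRCA1-null cells was 0.0045 without BRCA1-null DMSO library 2, in a range of -0.25 to 0.0045. The interaction of CDH2 was -0.018 with upper-quartile factors, -0.011 with the stricter filter and -0.12 to 0.15 without 1 library. Without 1 library the interactions also ranged from -0.33 to 0.0070 for CDH1, -0.015 to 0.13 for CDH3, -0.37 to 0.65 for CDH4 and -0.79 to 0.022 for CDH6.

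Over all genes, the larger shifts in the counts of 7472, 6975, 2503 and 1906 were 2204, 1864, 516 and 532 with the fold threshold, and 693 in BRCA1-null cells when only the groups compared were fitted. Omission of 1 library gave 5312 to 7387 and 4527 to 6918 between the lines, and 676 to 2413 and 512 to 1597 for entinostat.

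Deviations of libraries with the same replicate number correlated at 0.0523 to 0.287 over 6 pairs of groups, and the labels do not say what the number marks, so it was not taken as a pairing. With the replicate block 9 and 8 cadherins were called between the lines, for entinostat 4 in the BRCA1+ line and 5 in the BRCA1-null line, where CDH6 was gained (-0.78, adjusted p = 0.014). Junction genes numbered 10 and 8 for entinostat under the block, all genes 4314 and 3640, and 1 gene passed the interaction.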
